A study of Homo sapiens with 9 samples.

Results

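Chrom-seq labels the RNA that lies near a histone mark and reads it as a sequencing library. The comparison described here set the CBX1 chromodomain reader against the reader-free control across genes, in 3 libraries per group. Of the 57820 genes in the count table, 18837 had a summed count above 18 over these 6 libraries and were tested. All libraries came from HEK293T, an established line of human embryonic kidney cells. Both groups received the peroxidase APEX2, fused to an antibody fragment that binds the SunTag peptide (GCN4 in the labels) and driven by the chicken β-actin promoter. In the CBX1 group the GCN4 repeats were fused to the reader of CBX1 (mCBX1 in the paper's abstract) under the cytomegalovirus promoter. Per the paper's results, the Control group received the SunTag repeats without a reader. The paper's methods call this a reader-free empty vector. The column labels of both groups carry NLS. In both groups 48 hours of expression from transfected plasmids were followed by 30 min in 500 μM biotin-aniline, and the reaction was run for 1 min with hydrogen peroxide at 1 mM, after which biotinylated RNA was captured and its poly(A)+ part was sequenced. Expression was thus transient and at the strength of these promoters. The series holds 9 libraries, and the 3 of the W42A form of the reader were not used.

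CBX1 is a member of the HP1 family of heterochromatin proteins. Its chromodomain binds histone H3 trimethylated on lysine 9 (H3K9me3), a mark of silent chromatin that is laid down by methyltransferases such as SUV39H1 and SETDB1, the latter brought to its targets by TRIM28 and zinc-finger proteins of the KRAB family. H3K9me3 is known for covering repeats and the bodies of zinc-finger gene clusters on human chromosome 19. A gain here is a larger share of the RNA captured with the reader than of that captured without it. In such bulk libraries, fewer labelled cells and less labelled RNA per cell cannot be told apart.

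The total count was 8379542 to 10839843 per Control library and 8703898 to 9970364 per CBX1 library. The number of genes with at least 1 count was 21709 to 21876 in the Control libraries and 23289 to 23819 in the CBX1 libraries, so the ranges did not overlap. Values are CPM, read counts scaled to a common library total with TMM factors and not corrected for length. Vimentin (VIM, 420 to 605 CPM) and the neurofilament gene NEFM (213 to 340 CPM), both expressed in this line, were present in all libraries, and PAX2 was at 4.01 to 10.7 CPM. Of the genes of other cell types, HBB, INS and CD3E had 0 counts throughout, PTPRC had at most 2 counts, MYH6 at most 9 and ALB at most 25. Nothing in the labels says that replicates came from separate cultures, so the tests measure the spread between these libraries. No 2 libraries held the same values. Just above the limit for testing, 137 genes had a summed count of 19, of which 100 were noncoding. Just below it, 145 genes had a summed count of 18, of which 89 were noncoding.

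A gene was counted as gained where its log2 fold change reached 0.75, and as lost where it was -0.75 or less, each with a p under 0.05 from edgeR (quasi-likelihood fit, adjusted by Benjamini-Hochberg over all 18837 genes). With CBX1, 1330 genes were gained (7.06% of those tested) and 64 were lost (0.34%). At any fold, 1998 genes were higher (10.6%) and 1782 were lower (9.46%). The higher genes were 52.9% of all called at any fold with TMM factors, 74.3% with library size alone and 73.3% with upper-quartile factors. The 3 CBX1 libraries lay above all 3 Control libraries in 1291 of the 1330 gained genes, and below them in 62 of the 64 lost genes. The median Control level was 1.75 CPM for the gained genes and 6.7 CPM for the lost genes. After the change shared by genes of the same level had been removed, 636 genes were gained and 170 lost.

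Among protein-coding genes, the shares of gained genes and of genes lower at any fold moved with level in opposite directions. Of 14405 tested, 686 were gained (4.76%), 53 were lost and 1749 were lower at any fold (12.1%). The gained share was 16.1% at 1 to 3 CPM (mean of the 6 libraries) and 14.1% at 3 to 10 CPM, and fell to 3.63% at 10 to 30 CPM and 0.42% at 30 to 100 CPM. The share that was lower at any fold went the other way, from 0.472% at 1 to 3 CPM to 16.9% at 30 to 100 CPM and 29.2% at 100 to 300 CPM. Loss, which has a limit on fold, did not follow that order: the lost share was highest at 3 to 10 CPM (29 of 1862, 1.56%), where gain was also frequent, and was 0.472% at 1 to 3 CPM, 0.297% at 10 to 30 CPM and 0.126% at 30 to 100 CPM. A low gene can pass the limit for testing through its CBX1 libraries alone, so shares among the lowest genes are descriptions. The 4432 noncoding genes tested held 644 gained genes (14.5%) and 11 lost genes, with a median log2 fold change of 0.49 against -0.04 for the coding genes and 0.03 for all genes. The noncoding genes lay lower, at a median Control level of 1.16 CPM against 29.9 CPM for coding genes. At up to 1 CPM 7.45% of noncoding and 7.83% of coding genes were gained, and at 1 to 3 CPM 17.1% and 16.1%. The shares parted above that, at 26.2% and 14.1% at 3 to 10 CPM and 13.6% and 3.63% at 10 to 30 CPM. With the change shared by genes of the same level removed, 5.96% of the noncoding genes were gained, beside 636 of all 18837 genes.

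Gain was more frequent in protein-coding genes that lay close behind another gene of their strand. For each coding gene that overlapped no other tested gene of its strand, the gap was measured back to the 3′ end of the nearest tested gene upstream and on to the 5′ end of the nearest tested gene downstream. Of the genes with an upstream gap of 1 to 5 kb, 99 of 1203 were gained (8.23%). This share was 4.51% at 20 to 50 kb, 2.47% at 100 to 300 kb and 1.81% beyond 300 kb (48 of 2650), and the median log2 fold change moved from 0.05 to -0.08. The downstream gap showed no such fall, with 5.08% gained at 1 to 5 kb and 3.97% beyond 300 kb.

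The same order was seen among genes of a like level. At 1 to 10 CPM the gained share was 18.2% with an upstream gap of up to 1 kb, 23% at 1 to 5 kb, 21.4% at 5 to 20 kb, 15% at 20 to 50 kb, 13.1% at 50 to 100 kb, 8.38% at 100 to 300 kb and 5.92% beyond 300 kb. The downstream gap gave 20.6% at 1 to 5 kb and 11.4% beyond 300 kb. Splitting by both gaps put the difference on the upstream side. With the upstream gene within 20 kb, 22.3% of genes were gained where the downstream gene was also within 20 kb (81 of 363) and 21.7% where it was beyond 100 kb (60 of 276). With the upstream gene beyond 100 kb, the shares were 7.65% (15 of 196) and 6.17% (37 of 600). Genes are not replicates, and these shares carry no test of their own.

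**Figure D1:**
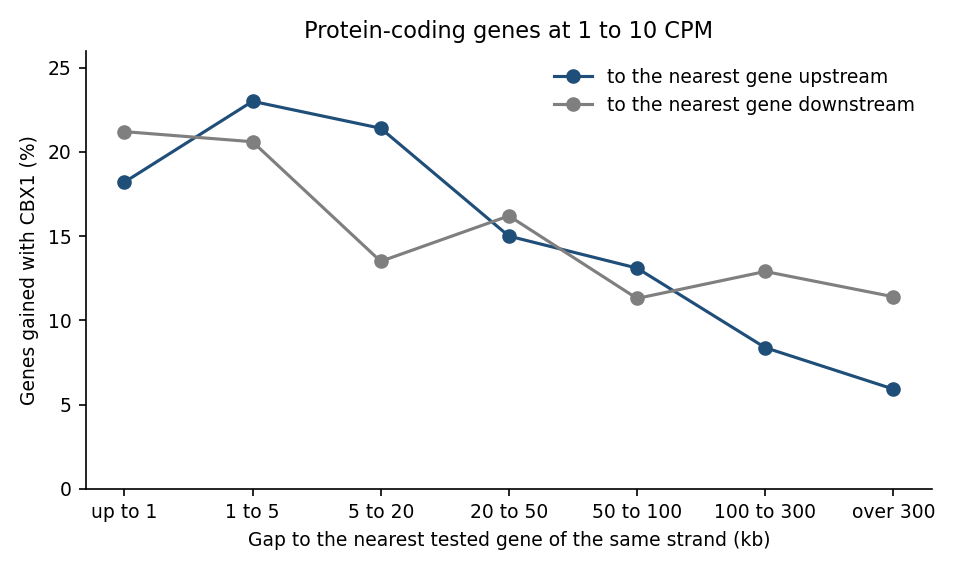
Share of protein-coding genes at 1 to 10 CPM that were gained with CBX1 (y axis, percent) by the gap in kb to the nearest tested gene of the same strand (x axis). The line for the upstream gene goes from 23% at 1 to 5 kb to 5.92% beyond 300 kb, and the line for the downstream gene from 20.6% to 11.4%.

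The upstream fall was also present without the ZNF genes (8.29% at 1 to 5 kb, 1.51% beyond 300 kb) and outside chromosome 19 (8.17% and 1.53%). Noncoding genes did not show it. Their gained share was 14.5% with an upstream gap of 1 to 5 kb and 13.2% beyond 300 kb. With the change shared by genes of the same level removed, coding genes at 1 to 10 CPM were gained in 11.1% of cases with an upstream gap of up to 5 kb and in 2.15% beyond 300 kb, against 21.5% and 5.92% without that step. Summed over the 522 coding genes of up to 10 CPM that lay within 5 kb of the upstream gene, the level was 1582, 1495 and 1650 CPM in the Control libraries and 2092, 2197 and 2077 CPM in the CBX1 libraries. The sum with CBX1 was 1.35 times that of the Control, and the groups did not overlap. Over the 1450 such genes with an upstream gap beyond 100 kb, the sums were 4829, 4807 and 4770 CPM against 5244, 5257 and 5282 CPM, a ratio of 1.1, again without overlap. Sums over genes chosen with results known are given as descriptions, with no test.

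Whether the upstream genes were themselves gained went with their own level. Among coding genes of up to 10 CPM within 5 kb of an upstream gene above 30 CPM, 52 of 242 were gained (21.5%), while 2 of the 242 upstream genes were, and the median log2 fold change of these upstream genes was -0.1. At 30 to 100 CPM, 0.42% of all coding genes were gained, so a low count is usual for upstream genes of this level. Of the upstream genes at 10 to 30 CPM 5 of 96 were gained, of those at 3 to 10 CPM 18 of 63, and of those of up to 3 CPM 16 of 121. The low genes behind them were gained in 19.8%, 19% and 13.2% of cases in the same order. The 6 gained genes of this kind with the smallest p are given with their neighbours, and were chosen after their values had been seen. LRRC66, a gene for a leucine-rich repeat protein, starts 3085 bases after the 3′ end of SGCB, which encodes a sarcoglycan of the muscle membrane. LRRC66 was at 2.58, 2.34 and 2.54 CPM in the Control libraries and at 10.2, 10.4 and 9.74 CPM in the CBX1 libraries (21 to 27 counts and 91 to 100 counts). SGCB was at 65.2, 63.2 and 62.1 CPM against 55.6, 49 and 62.5 CPM. The groups stood apart for LRRC66 (log2 fold change 2.02, SE 0.21, edgeR adjusted p = 1.92e-05) and overlapped for SGCB (-0.19, SE 0.1, edgeR adjusted p = 0.216).

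AVIL, the gene for the actin-binding protein advillin, starts 1222 bases after CTDSP2, a phosphatase gene. AVIL was at 2.20, 2.23 and 2.29 CPM in the Control and 8.73, 9.67 and 10.2 CPM with CBX1, and it overlaps TSFM on the opposite strand. Its groups did not overlap, and those of CTDSP2 did (79 to 100 CPM over all libraries). DNAH10 encodes a heavy chain of the dynein of cilia and starts 739 bases after ATP6V0A2, a subunit gene of the proton pump of acidic organelles. DNAH10 was at 3.35, 4.46 and 4.11 CPM against 13.8, 12.7 and 11.4 CPM, with no overlap of the groups (log2 fold change 1.67, SE 0.19, edgeR adjusted p = 4.64e-05). The span of DNAH10 overlaps CCDC92 on the opposite strand. ATP6V0A2 was at 86.1, 99.3 and 92 CPM in the Control and 74.6, 80.3 and 75 CPM with CBX1, so it stood lower in all 3 CBX1 libraries and did not pass the test (edgeR adjusted p = 0.0515).

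KCND1, a voltage-gated potassium channel gene, starts 2157 bases after GRIPAP1. Its level was 5.65, 2.45 and 5.07 CPM in the Control and 12.2, 16.2 and 12.2 CPM with CBX1, the groups not overlapping in spite of a low second Control library. GRIPAP1 was at 256, 252 and 257 CPM against 277, 300 and 286 CPM, higher in every CBX1 library but not past the test (log2 fold change 0.17, SE 0.09, edgeR adjusted p = 0.165). UCP3, a mitochondrial carrier gene known from muscle, starts 3282 bases after C2CD3, a centriole gene. UCP3 was at 1.82, 1.89 and 1.69 CPM against 5.82, 6.56 and 5.75 CPM. C2CD3 was at 99.5 to 118 CPM against 89.6 to 94.1 CPM, lower in every CBX1 library (log2 fold change -0.23, SE 0.09, edgeR adjusted p = 0.0894). It overlaps PPME1 on the opposite strand. PYROXD2, the last of the 6, lies 1013 bases after HPS1 and went from 3.19 ± 0.365 CPM to 10.2 ± 1.96 CPM (SD, 3 libraries each). In each of these 6 pairs the downstream gene passed the test and the upstream one did not. This did not hold for all gained genes of this kind, since some of their upstream genes were called at any fold. Most of those were lower, such as AEN (log2 fold change -0.77) and MBD4 (-0.53), while MIB2 (0.62) and CHTF18 (0.51) were higher. Since the table counts reads over a whole span, the part of the span from which the reads came is not known, and reads of the gene's own transcript cannot be told apart from reads that run on from the gene before it.

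**Figure D2:**
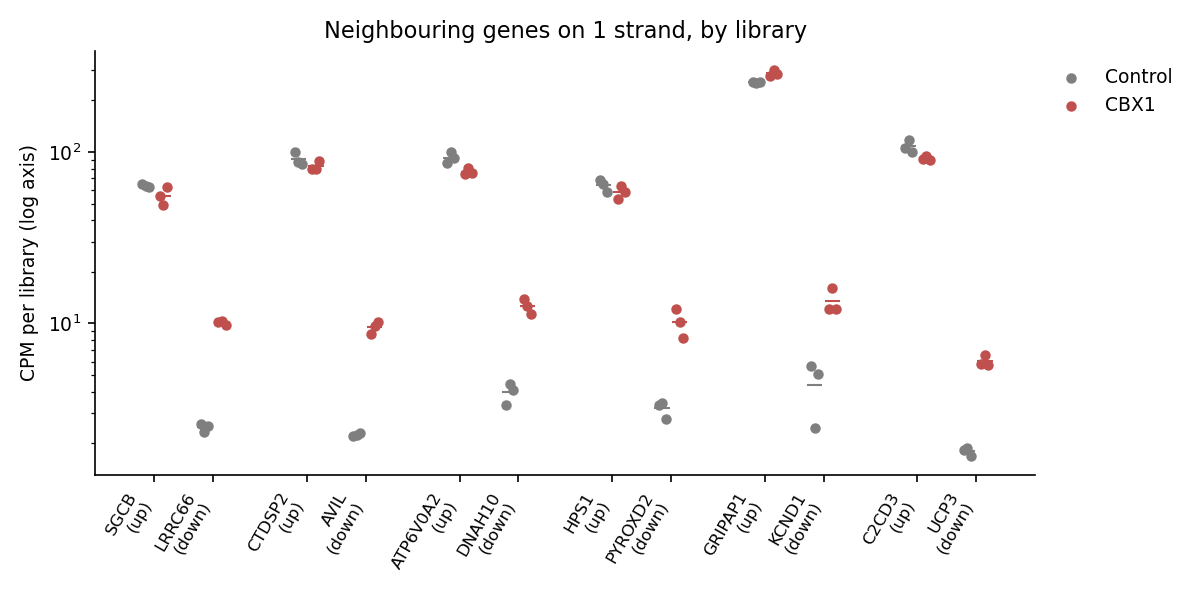
CPM per library (y axis, log scale) for 6 pairs of neighbours on 1 strand, the upstream gene (up) beside the downstream gene (down). Points are single libraries, short lines are means of 3. The downstream genes lie higher in every CBX1 library (red) than in every Control library (grey), while no upstream gene passed the test.

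The starts of such genes differed in their content of CpG, the dinucleotide that is dense at the promoters of widely expressed genes. CpG was counted in 300 bases, from 250 before to 50 after the start of each span, in GRCh37, the build of the table. These 3 windows, chosen after their genes' values had been seen, show the range, with every CpG in capitals. LRRC66 is a gained gene with few CpG, SGCB is the abundant neighbour of LRRC66, and DNAH10 is a gained gene that goes against the trend. They lie at chr4:52883737-52884036 (minus strand, LRRC66), chr4:52904599-52904898 (minus strand, SGCB) and chr12:124246792-124247091 (plus strand, DNAH10).
LRRC66: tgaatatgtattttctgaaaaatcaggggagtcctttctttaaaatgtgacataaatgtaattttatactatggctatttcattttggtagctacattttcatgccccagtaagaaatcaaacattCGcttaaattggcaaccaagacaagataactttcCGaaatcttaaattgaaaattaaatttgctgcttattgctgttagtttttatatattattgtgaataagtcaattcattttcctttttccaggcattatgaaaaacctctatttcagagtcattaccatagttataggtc
SGCB: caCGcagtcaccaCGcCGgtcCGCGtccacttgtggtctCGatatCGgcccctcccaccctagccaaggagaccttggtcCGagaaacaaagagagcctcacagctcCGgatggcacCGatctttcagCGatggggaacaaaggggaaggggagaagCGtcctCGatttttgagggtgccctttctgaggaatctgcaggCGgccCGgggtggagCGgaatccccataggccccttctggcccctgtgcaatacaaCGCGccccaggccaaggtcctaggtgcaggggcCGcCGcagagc
DNAH10: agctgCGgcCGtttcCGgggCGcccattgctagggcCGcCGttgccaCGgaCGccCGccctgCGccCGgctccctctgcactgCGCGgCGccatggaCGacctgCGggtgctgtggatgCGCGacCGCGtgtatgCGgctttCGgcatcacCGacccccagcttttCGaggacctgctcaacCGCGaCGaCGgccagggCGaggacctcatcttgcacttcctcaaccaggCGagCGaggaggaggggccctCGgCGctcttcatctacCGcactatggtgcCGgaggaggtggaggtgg
The window of LRRC66 holds 2 CpG, that of SGCB 20 and that of DNAH10 35. Over all tested coding genes the median was 21, and 11.4% had fewer than 5.

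At 1 to 10 CPM, and with the upstream gene within 20 kb, 73 of 179 coding genes with fewer than 5 CpG were gained (40.8%). The share was 25.1% at 5 to 9 CpG, 15.7% at 10 to 19, 17.9% at 20 to 29 and 9.42% at 30 or more (18 of 191). Where the upstream gene lay beyond 100 kb, the gained share was 8.48% with fewer than 5 CpG and 5.24% at 30 or more. RefSeq's own gene starts (promoter table, GRCh38.p14) gave a second count. Near an upstream gene the shares were 46.2% with fewer than 5 CpG and 11.4% at 30 or more. Beyond 100 kb they were 14.9% and 3.29%, so with these starts the share was lower at high CpG at both distances. The 2 counts thus differ on the genes beyond 100 kb. That promoter table held only 68.1% of the genes at this level, and whether the missing genes differ was not tested. A TATAAA in the 60 bases before the start (on the gene's own strand) stood in 2.55% of the gained and 1.68% of the other coding genes at 1 to 10 CPM, and in 1.34% of all tested genes. With the change shared by genes of the same level removed, the gained shares near an upstream gene were 22.3% with fewer than 5 CpG and 3.14% at 30 or more. Without that step and without CBX1 replicate 2, the share at 30 or more CpG was 5.76%, against 9.42% with all libraries.

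**Figure D3:**
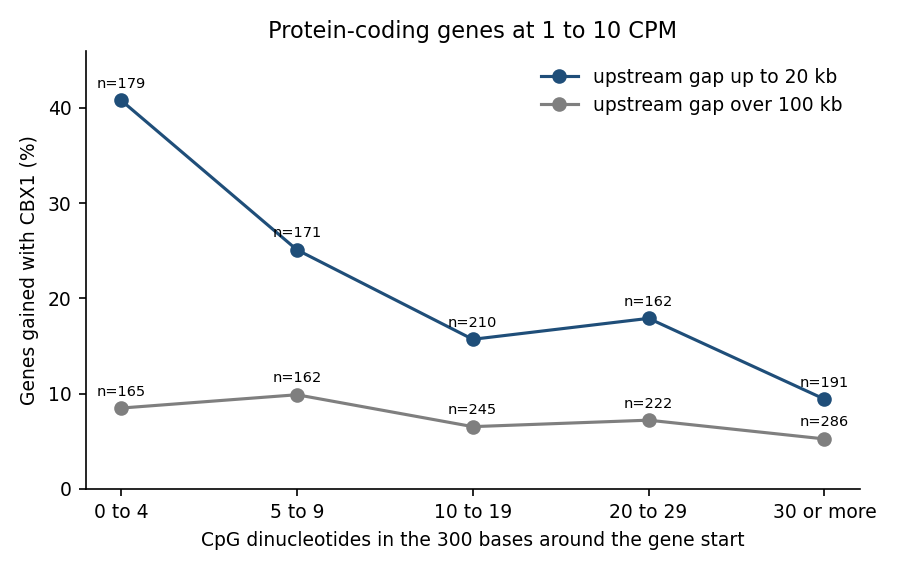
Share of protein-coding genes at 1 to 10 CPM gained with CBX1 (y axis, percent) by the number of CpG in the 300 bases around the gene start (x axis), for an upstream gap of up to 20 kb and of over 100 kb, with n the genes in each class. Near an upstream gene the share goes from 40.8% to 9.42%, and away from one it stays between 5.24% and 9.88%. Starts are those of the deposited spans. With RefSeq starts (not drawn) the share away from an upstream gene goes from 14.9% to 3.29%.

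Gain was also compared between coding genes and noncoding neighbours. Of all tested noncoding genes, 14.5% were gained, and their median log2 fold change was 0.49 against -0.04 for coding genes. A larger value in the noncoding gene of a pair is therefore usual. In 2166 pairs a coding and a noncoding gene overlapped on opposite strands. The noncoding gene was gained in 28.6% of pairs whose coding gene was gained (20 of 70) and in 13.8% of the others. The log2 fold change of the noncoding gene was the larger in 74.2% of pairs. In divergent pairs with starts within 1 kb (539 pairs), these shares were 20% (2 of 10) and 17.8%, and the noncoding gene was the larger in 83.1%. For noncoding genes within 5 kb of a coding gene on the same strand (787 pairs), the shares were 38.6% (17 of 44) and 12.4%. Across the pairs the log2 fold changes had Pearson's r of 0.12, 0.1 and 0.22 in this order, a description over pairs that share libraries. In coding pairs on 1 strand within 5 kb, the downstream gene was gained in 8.04% of 1579 pairs and r was -0.01.

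The pairs with both members gained and the smallest p included the atrial natriuretic peptide gene NPPA and its antisense gene NPPA-AS1. NPPA was at 0.287, 0.780 and 0.121 CPM in the Control and 4.14, 2.11 and 2.73 CPM with CBX1, and NPPA-AS1 at 1.72, 3.46 and 1.93 CPM against 7.05, 7.78 and 8.28 CPM. In neither did the groups overlap. The zinc-finger gene ZNF528 and CTD-3018O17.3, whose starts lie 83 bases apart on opposite strands, went from 1.01 to 6.56 CPM and from 0.373 to 2.91 CPM (means of 3 libraries). Among coding genes that overlapped part of another coding gene of their strand, 10.8% were gained (100 of 926), among those that took one or more in whole 10.1% (30 of 296), and among those that overlapped none 4.22% (556 of 13183). These 3 groups differed in level, with median Control values of 12.3, 15.9 and 31.6 CPM in the same order. At 1 to 10 CPM their gained shares were 23.3%, 23% and 13.8%. Each of the 7900 genes inside another gene of its strand had 0 counts, so the counts of overlapping genes came from the stretches that they did not share.

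In noncoding genes the gain followed the length of the span. At 1 to 10 CPM, 8.87% of those of up to 3 kb were gained (56 of 631), 16% at 3 to 10 kb, 23.1% at 10 to 30 kb, 30.3% at 30 to 100 kb, 43.3% at 100 to 300 kb and 45.1% beyond 300 kb (23 of 51). Their median log2 fold change went from 0.28 to 1.13. Coding genes of the same level went from 5.99% at up to 3 kb to 18.6% at 30 to 100 kb and back to 13.3% beyond 300 kb. The exonic part of the span went the other way in noncoding genes. Over all levels, the gained share was 24.3% where exons made up at most 3% of the span and 7.1% where they made up more than 50%. Spans include introns, so the length of a noncoding gene and its exonic share cannot be told apart here.

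**Figure D4:**
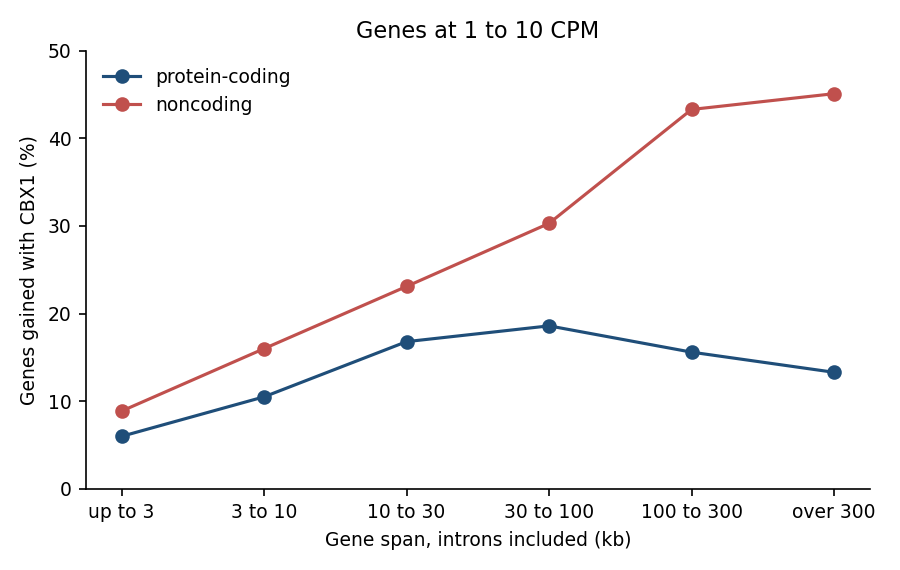
Share of genes at 1 to 10 CPM gained with CBX1 (y axis, percent) by gene span in kb, introns included (x axis). Noncoding genes rise from 8.87% to 45.1%, and protein-coding genes peak at 18.6% at 30 to 100 kb.

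Summed over the 381 tested noncoding genes of more than 100 kb, the level was 1994, 2186 and 2191 CPM in the Control and 2992, 2889 and 3039 CPM with CBX1, a ratio of 1.4. Over the 1397 noncoding genes of up to 3 kb, the sums were 8955, 11232 and 9860 CPM against 13059, 11684 and 11264 CPM, a ratio of 1.2. This short set includes the 2 mitochondrial rRNA genes, with a median Control level of 2879 CPM and a median log2 fold change of 0.33. Its sum therefore largely reflects these 2 genes. In neither set did the groups overlap. Of the long genes, 32.0% were gained, 15% with the change shared by genes of the same level removed and 20.5% without Control replicate 1. By type, the gained share was 21.4% in processed transcripts, 16.1% in lincRNA genes, 14.7% in antisense genes and 10.9% in pseudogenes. Pseudogenes share sequence with their parent genes, so their counts are uncertain.

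The paraspeckle RNA NEAT1 was at 427, 301 and 482 CPM in the Control and 792, 663 and 956 CPM with CBX1 (log2 fold change 1, SE 0.15, edgeR adjusted p = 0.000342). KCNQ1OT1, the antisense RNA of an imprinted domain on chromosome 11 and 91.7 kb long, was at 16.9, 16.5 and 23.2 CPM against 45.2, 37.1 and 44.6 CPM (log2 fold change 1.17, SE 0.14, edgeR adjusted p = 5.45e-05). The groups overlapped in neither. Of the 8 tested nuclear RNAs of the list of paraspeckle and speckle RNAs, 3 were gained (NEAT1, KCNQ1OT1 and MALAT1). The gained share was 7.06% of all tested genes and 14.5% of noncoding genes. The list is wider than its name, since it holds KCNQ1OT1. Its median log2 fold change was 0.14. Of the 24 noncoding genes in the table for which RT-qPCR primers were designed, all were tested and 9 were gained. Of all tested noncoding genes, 14.5% were gained. The median log2 fold change of the 24 was 0.55, against 0.49 for all noncoding genes. Some of them were chosen on the study's own libraries. Per the paper, others came from data of PIRCh-seq, an antibody-based method, in H9 cells, and were missed by its own Chrom-seq. The set is no independent evidence of a direction.

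The amplified stretches of 3 gained members of that set are printed to show what part of a long span was assayed. The primer sites are in capitals, and the sequence between them is that of GRCh37. Each lies inside 1 annotated exon: AC004158.2 at chr16:72698794-72698866 (minus strand), RP11-500G22.2 at chr10:123688073-123688143 (plus strand) and SETD5-AS1 at chr3:9430865-9430935 (minus strand).
AC004158.2: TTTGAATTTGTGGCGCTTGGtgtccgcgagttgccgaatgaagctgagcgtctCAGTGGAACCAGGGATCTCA
RP11-500G22.2: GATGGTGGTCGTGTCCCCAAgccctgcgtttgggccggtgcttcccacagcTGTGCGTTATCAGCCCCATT
SETD5-AS1: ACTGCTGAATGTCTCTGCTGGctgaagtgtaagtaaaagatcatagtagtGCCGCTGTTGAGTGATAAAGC
In AC004158.2 this stretch is 73 bases of a span of 240 kb, and the gene was at 5.65, 8.69 and 8.21 CPM against 13.7, 13.2 and 14.8 CPM. In RP11-500G22.2 it is 71 bases of a span of 23.7 kb, with the gene at 6.70, 5.24 and 7.24 CPM against 11.2, 17 and 15 CPM. SETD5-AS1 was at 35.3, 34.7 and 33.1 CPM against 60.1, 66.6 and 66.7 CPM, and it overlaps SETD5 on the opposite strand (log2 fold change 0.91, SE 0.1, edgeR adjusted p = 2.6e-05). The groups did not overlap in any of the 3.

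Across chromosomes, chromosome 19 stood apart for coding genes and not for noncoding ones. On it, 95 of 1038 coding genes were gained (9.15%) and 4.53% were lower at any fold, while on the other nuclear chromosomes 1.43% to 6.98% were gained and 9.81% to 15.9% were lower. For noncoding genes the gained share was 12.2% on chromosome 19 and 9.38% to 21.2% on the other nuclear chromosomes. The ZNF genes, most of which encode DNA-binding zinc-finger proteins, were gained in 46 of 413 cases (11.1%), lost in 0, and higher at any fold in 103. At any fold 18 were lower, 2 of them on chromosome 19 and 16 elsewhere. Beside the 0 lost by edgeR, 2 ZNF genes passed both limits with the unadjusted p, and DESeq2 called 0. On chromosome 19, 36 of 187 were gained (19.3%), and elsewhere 10 of 226 (4.42%). At 10 to 30 CPM the shares were 14% and 6.41%, against 7.02% of the other coding genes on chromosome 19 and 3% of the other coding genes elsewhere. At 1 to 10 CPM they were 33.3% and 14.3%, against 18.3% of the other coding genes on chromosome 19 and 14.3% of those elsewhere. Over all levels, ZNF genes away from chromosome 19 and the other coding genes there had the same gained share (4.42%).

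The summed level of the 187 ZNF genes on chromosome 19 was 3197, 3505 and 3377 CPM in the Control and 4170, 4201 and 4098 CPM with CBX1, a ratio of 1.24. That of the 226 ZNF genes elsewhere was 9497, 9721 and 9587 CPM against 9137, 9387 and 9170 CPM, a ratio of 0.961. The groups stood apart in opposite directions. Of 449 windows of 5 Mb with at least 15 tested genes, the median window had 6.25% of its genes gained. The highest was chr19:20000001-25000000 in GRCh37, with 11 of 27 gained (40.7%), 10 of them among its 22 ZNF genes. ZNF429 was there at 9.09, 12.5 and 11 CPM against 23.8, 23.6 and 23.3 CPM, and ZNF738 at 10.3, 12.7 and 12.2 CPM against 23.7, 20.7 and 23.6 CPM, with no overlap in either. Outside that window, 26 of 165 ZNF genes of chromosome 19 were gained (15.8%). ZNF genes resemble one another, and how reads that fit several of them were counted is not given in the sources used here, so single values are uncertain.

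The next windows were smaller in share. They were chr10:135000001-140000000 (5 of 16), with the drug-metabolizing enzyme gene CYP2E1 at means of 4.65 and 16.3 CPM (Control and CBX1), chr4:15000001-20000000 (5 of 19), with FAM184B at 2.94 and 11 CPM, chr7:140000001-145000000 (9 of 42), with the maltase gene MGAM at 6.78 and 21.5 CPM, and chr8:100000001-105000000 (7 of 34). The chromosome 10 window is cut short by the end of that chromosome at base 135534747, so it covers far less than 5 Mb. CYP2E1 shares its stretch with RP11-108K14.4 on the same strand, and its count comes from the rest. Of the 449 windows, 75 had no gained gene.

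The lists of transporters, channels, receptors and collagens are read against gained shares of 7.06% of all tested genes, and of 16.1%, 14.1% and 3.63% of all coding genes at 1 to 3, 3 to 10 and 10 to 30 CPM. Of 278 solute carrier genes (median Control level 16.7 CPM), 28 were gained (10.1%) and 1 lost, with a median log2 fold change of 0.03. The betaine transporter gene SLC6A12 was at 2.11, 2.12 and 2.78 CPM against 11.8, 10.4 and 13.5 CPM (log2 fold change 2.36, SE 0.22, edgeR adjusted p = 7.58e-06), and its neighbour upstream on the same strand, the GABA transporter gene SLC6A13, at 3.06, 2.34 and 3.02 CPM against 13.1, 10.9 and 9.26 CPM. In neither did the groups overlap. Collagen genes were gained in 6 of 38 cases (15.8%, at a median Control level of 9.11 CPM and a median log2 fold change of 0.26), the smallest p being that of COL7A1, the anchoring fibril collagen of skin, at 22.2, 17.8 and 29.2 CPM against 62.6, 75 and 57.7 CPM. COL7A1 starts 3734 bases after UQCRC1. Glutamate and GABA receptor genes were gained in 6 of 28 cases (21.4%, at 2.96 CPM and a median of 0.18), among them GRIN2C, 991 bases after FDXR. Potassium channel genes were gained in 6 of 63 cases (9.52%, at 2.89 CPM and a median of 0.31), a share below that of all coding genes of their level. DESeq2 called 21 solute carrier, 4 collagen, 4 receptor and 5 potassium channel genes gained. The medians of the receptor and the channel lists were -0.05 and -0.01 with the change shared by genes of the same level removed, so the direction of these medians turned with that step, and that of the solute carriers did too (-0.01).

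In the interferon-stimulated genes, 2 of 21 were gained (9.52%, against 7.06% of all genes) and 4 were lower at any fold (19%, against 9.46%), 1 of them past the limit for a loss. With 14.1% of all coding genes at 3 to 10 CPM gained and a median Control level of 7.75 CPM in the list, its gained share was not above the background. IFI27 was at 6.60, 6.13 and 10.5 CPM against 22.9, 24.3 and 23.3 CPM and starts 989 bases after IFI27L1. ISG20, an exonuclease gene, was at 2.68, 4.68 and 4.59 CPM against 8.06, 8.78 and 6.43 CPM and starts 3870 bases after AEN, which was lost. IFIH1, a sensor of double-stranded RNA, was lost, at 7.85, 10.7 and 7.49 CPM against 3.69, 4.33 and 4.97 CPM. The 3 genes thus went in both directions, with no overlap of the groups in any of them. The list as a whole leaned down, with a median log2 fold change of -0.24 and positive values in 7 of 21 genes. For all coding genes at 3 to 10 CPM the median was 0.15. With the change shared by genes of the same level removed, the median of the list was -0.45.

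The genes with the largest gains were at very low levels in the Control. Among the gained genes with at least 30 counts in the mean CBX1 library, the first 6 by fold had log2 fold changes of 3 to 3.49. IL17F, an interleukin gene, was at 1.05, 0.892 and 0.845 CPM against 9.29, 6.45 and 7.89 CPM. C19orf18 was at 0.670, 0.111 and 1.33 CPM against 7.5, 7 and 5.07 CPM and starts 2518 bases after ZNF606. ZNF354C was at 0.287, 0 and 0.724 CPM against 4.03, 3.44 and 3.90 CPM. The groups did not overlap in these 3, on Control counts of 11, 8 and 7 for IL17F, 7, 1 and 11 for C19orf18 and 3, 0 and 6 for ZNF354C. Among gained coding genes in no list, ACTA1, the actin gene of skeletal muscle, went from 6.26 to 23.6 CPM (log2 fold change 1.92, SE 0.17, edgeR adjusted p = 4.88e-06) and FN3K, a kinase gene that starts 5246 bases after FN3KRP, from 7.61 to 29.6 CPM (log2 fold change 1.96, SE 0.18, edgeR adjusted p = 4.88e-06).

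Loss was rare, and the 10 lost genes of smallest p lay between 21.4 and 297 CPM in the Control, against a median of 6.7 CPM for all 64 lost genes. The lost gene of smallest p was AP3M1, a subunit gene of the adaptor AP-3, at 116, 112 and 104 CPM in the Control and 62.7, 61.3 and 68.8 CPM with CBX1 (log2 fold change -0.78, SE 0.09, edgeR adjusted p = 6.33e-05). AEN, a nuclease gene known as a target of p53, was at 114, 125 and 108 CPM against 66.5, 69 and 67.3 CPM. CHAF1B, which encodes a subunit of the chromatin assembly factor CAF-1, was at 128, 116 and 113 CPM against 64.3, 75.7 and 66.2 CPM. In all 3 the CBX1 libraries lay below the Control libraries without overlap. HERC5, a ligase gene for the ubiquitin-like ISG15, went from 52.3 to 29.2 CPM, the kinesin gene KIF5C from 85.2 to 50.3 CPM, the synaptotagmin gene SYT11 from 29.2 to 15.4 CPM and the neutral amino acid transporter gene SLC1A4 from 21.4 to 11.2 CPM. TCHP, AKIP1 and RRP12 complete the first 10 by p, with log2 fold changes of -0.77 each. TCHP overlaps GIT2 on the opposite strand. Without CBX1 replicate 1, 42 genes were lost in place of 64.

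Genes lower at any fold were frequent among all abundant coding genes, at 16.9% at 30 to 100 CPM, 29.2% at 100 to 300 CPM and 29.1% above. Of the 18 tRNA synthetase genes (median Control level 210 CPM), 11 were lower (61.1%, median log2 fold change -0.36). By edgeR 0 were gained or lost, as by DESeq2 and by the unadjusted p. LARS was at 307, 322 and 296 CPM against 204, 206 and 190 CPM, and VARS at 192, 176 and 176 CPM against 125, 131 and 119 CPM. The sum over the list was 4149, 4567 and 3888 CPM against 3373, 3205 and 3200 CPM, 0.776 times the Control, with no overlap. Genes of nucleolar ribosome biogenesis were lower in 17 of 41 cases (41.5%, median -0.24) and DEAD and DEAH box helicase genes in 20 of 50 (40%, median -0.22), with DDX21 at 782, 862 and 716 CPM against 551, 552 and 542 CPM. For translation factor and cell cycle genes the share was near that of all coding genes at 100 to 300 CPM. Translation factor genes were lower in 16 of 54 cases (29.6%, median -0.15) and cell cycle and kinetochore genes in 12 of 36 (33.3%, median -0.16), both at median Control levels in that range (191 and 151 CPM). Chaperonin and heat shock genes were lower in 20 of 70 (28.6%, median -0.2) and Polycomb genes in 10 of 34 (29.4%, median -0.17). Their median Control levels were 80.6 and 80.7 CPM, in the range where 16.9% of all coding genes were lower (30 to 100 CPM). At 30 to 100 CPM the share was 29.4% for chaperonin and 35.3% for Polycomb genes. At 100 to 300 CPM it was 57.1% and 25%, against 29.2% of all coding genes. The spindle gene TPX2 was at 295, 285 and 278 CPM against 181, 179 and 173 CPM, and the replication helicase gene MCM5 at 400, 382 and 346 CPM against 198, 243 and 232 CPM. The medians of these 7 lists were below 0 under each scaling and trend removal tried, but the counts of lower genes fell. With the change shared by genes of the same level removed, they were 5 tRNA synthetase, 6 nucleolar, 8 DEAD and DEAH box, 6 translation factor, 7 chaperonin, 6 cell cycle and 3 Polycomb genes. With library size alone they were 9, 13, 9, 9, 11, 9 and 3 in the same order.

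How many genes were lower depended on the libraries and the scaling. Against 1782, it was 886 without CBX1 replicate 3, 1111 without CBX1 replicate 1, 1187 without Control replicate 1, 853 with library size alone, 900 with upper-quartile factors and 837 with the change shared by genes of the same level removed.

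Genes of the mitochondrial genome went the other way. All 13 protein genes of the mitochondrial genome had positive log2 fold changes (median 0.32) and 8 were higher at any fold. Their sum was 27994, 29048 and 29726 CPM in the Control and 37314, 35946 and 35806 CPM with CBX1, a ratio of 1.26 without overlap. Of the 84 cytosolic ribosomal protein genes, 68 had positive log2 fold changes (81%, median 0.18), but 3 were gained and 1 was lower (DESeq2 called 0 gained), and their sums overlapped, at 31324, 43791 and 36177 CPM against 45346, 34343 and 42441 CPM. RPS27 was called gained although its groups overlapped, at 70.5, 129 and 96.7 CPM against 449, 83.6 and 139 CPM, with the first CBX1 library far above the rest. RPL37A was gained by edgeR with overlapping groups too, at 75.7, 206 and 123 CPM against 300, 173 and 240 CPM. The log2 fold changes of the 67 nuclear genes of the respiratory chain had a median of 0.05.

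The genes of the H3K9me3 machinery were not among the gained or lost. CBX1 was at 684, 552 and 594 CPM in the Control and 541, 524 and 562 CPM in the libraries with its chromodomain (log2 fold change -0.17, SE 0.09, edgeR adjusted p = 0.22), and its groups overlapped. The table counts CBX1 reads over the whole gene, so these values check neither the labels nor the transfected reader. Its paralogs CBX3 and CBX5 had log2 fold changes of -0.06 (SE 0.11) and 0.21 (SE 0.09). SUV39H1 was at -0.15 (SE 0.12), SETDB1 at 0.16 (SE 0.13) and TRIM28 at -0.12 (SE 0.09), and none of these 5 passed the test (edgeR adjusted p of 0.111 to 0.727). The signs of CBX3 and TRIM28 turned under the step that removes the change shared by genes of the same level. Of the 31 tested genes of the list of H3K9 methylation machinery, 0 were gained or lost by edgeR, by DESeq2 or by the unadjusted p, 4 were higher at any fold and 6 were lower. The median log2 fold change was -0.09 against 0.03 for all genes, and 0.02 with the change shared by genes of the same level removed.

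**Figure D5:**
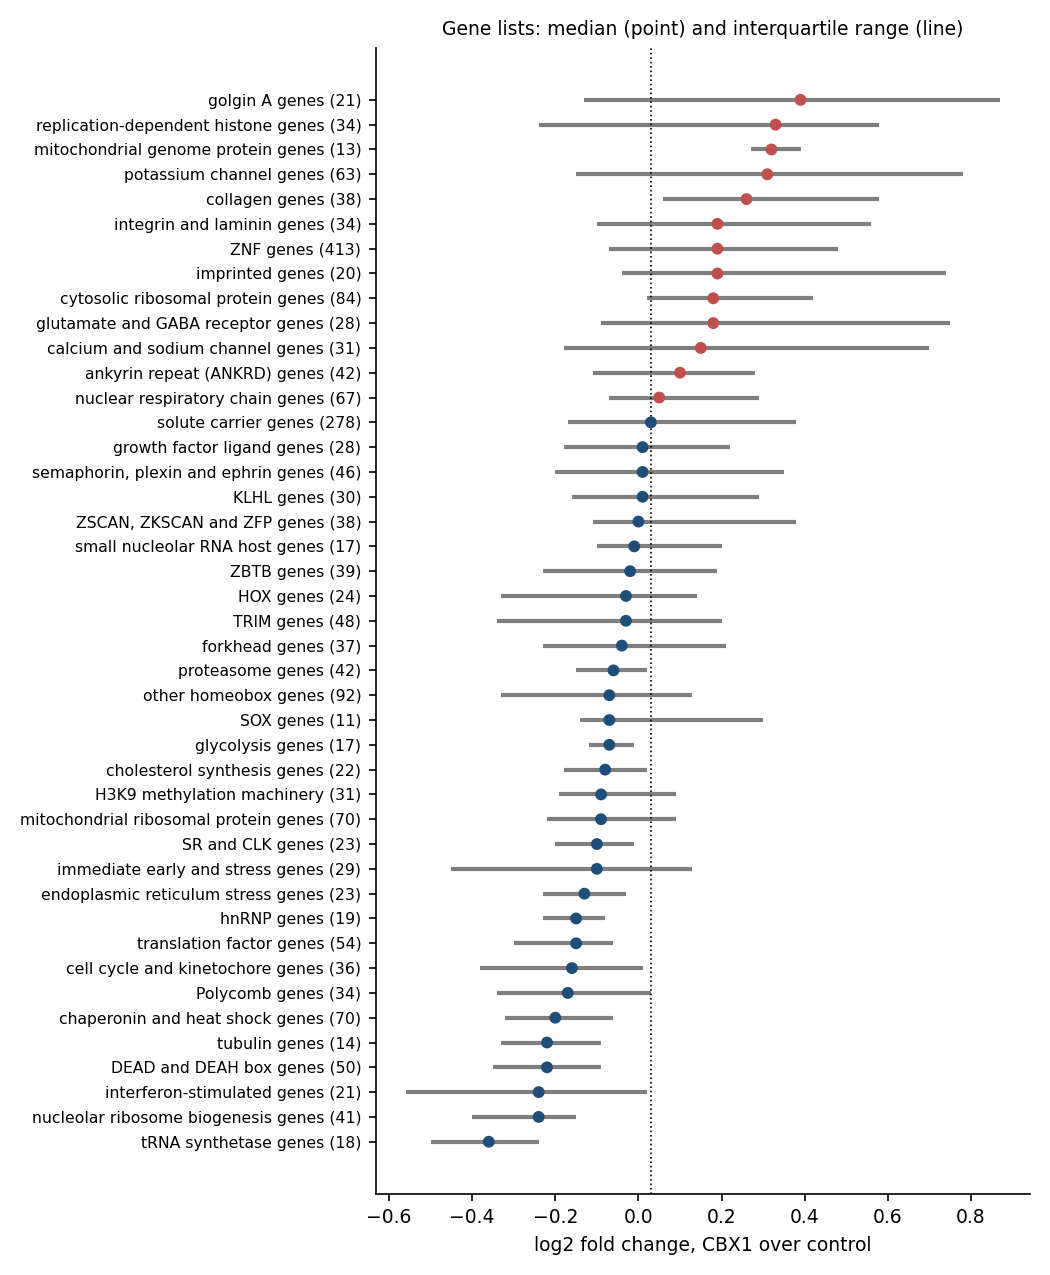
Log2 fold change of CBX1 over Control (x axis) for each gene list with at least 10 tested genes, number tested in parentheses. Points are medians, lines the interquartile range of the genes, and the dotted line the median of all tested genes (0.03); lists range from -0.36 (tRNA synthetase genes) to 0.39 (golgin A genes).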

How the data were processed

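HEK293T libraries of Control and CBX1 (3 each) were compared. The authors deposited 1 table of raw read counts per gene on hg19 (GENCODE v19 gene models). Per the submitters' processing notes, reads passed FastQC (v0.11.8) and fastp (v0.23.1), were aligned with HISAT2 (v2.1.0) and counted with featureCounts (v2.0.1), with DESeq2 (v1.34.0) also named. The strand setting is not given in the sources used here. In the table every gene length equals its span, and all 7900 genes inside another gene of the same strand had 0 counts, while 37.6% of the 9764 genes inside a gene of the opposite strand only had counts.

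Counts were fitted with edgeR (v4.0.16, quasi-likelihood test, TMM factors, R v4.3.3) on genes with a summed count above 18, and p-values were adjusted by Benjamini-Hochberg over all 18837. Calls required adjusted p < 0.05 and a change of 0.75 or more on the log2 scale. The biological coefficient of variation was 10.5%. The fit was tested on counts simulated from its own fitted spread. Changes larger than the limit for a call were set, and only in genes of higher count. That test therefore does not cover low genes or changes near the limit. Gaps, overlaps, promoter windows and spans came from the deposited spans and the GRCh37 sequence. Windows for 18826 of the 18837 genes were read. Gene lists, places and sums per library were described by counts and values, with no test of their own. The total counts of 8379542 to 10839843 per library set the precision, which is lowest for low genes.

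Named genes were, in each list, up to 2 gained and 2 lost (else lower) members of smallest p, the 10 lost genes of smallest p, 8 gained coding genes in no list, the 6 largest gains with at least 30 counts, the lead genes of 5 windows of 5 Mb, 2 pairs per relation, reader and H3K9 genes, and the RNAs with primers (not all are reported here), with exceptions marked in the text. The members, the 46 gene lists and the tests were chosen with earlier results of these data known. Alternatives covered DESeq2 (v1.42.0), scaling, filters, exon GC, abundance, all 9 libraries, a replicate block and leaving out each library.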

Additional observations from a re-analysis of the deposited data

How the results depend on the processing

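The numbers of genes gained, lost, higher and lower were 1330, 64, 1998 and 1782. With library size alone 31 were lost and 853 lower, and with upper-quartile factors 33 and 900. With at least 10 counts in every library 838 were gained and 39 lost, with exon GC removed 97 were lost, and at a log2 fold change of 1 the lost were 24. A test against a log2 fold change of 0.75 left 170 gained and 1 lost. With the change shared by genes of the same level removed, 636 were gained, 170 lost and 837 lower, and the gained shares fell to 5.96% of noncoding genes, 15% of those over 100 kb, 11.1% and 2.15% of coding genes with upstream gaps of up to 5 kb and over 300 kb, and 22.3% and 3.14% of those near an upstream gene with under 5 and with 30 or more CpG. By construction that step takes out any change that follows level. Leaving out 1 library gave 974 to 1219 gained, 42 to 74 lost, 1347 to 1858 higher and 886 to 1731 lower, 20.5% to 30.6% of noncoding genes over 100 kb, and 5.76% to 9.95% of coding genes near an upstream gene with 30 or more CpG. With the replicate block 1021 were gained, 46 lost, 1433 higher and 1027 lower. The deviations of same-numbered libraries from their group means had correlations of -0.191, -0.224 and 0.044. They were 0.233 for CBX1 replicate 2 with Control replicate 1 and 0.218 for CBX1 replicate 1 with Control replicate 2. Such deviations cancel within each group, so these correlations cannot decide whether the libraries were paired. Of the named genes, the 167 called kept their sign in all 2807 values and lost the call in 233. Of the 14 not called, signs turned in 13 values. These were TRIM28 (0.05) and CBX3 (0.11), RP11-34P13.13 (-0.19), AC005943.5 (-0.07) and JPX (0.10) with the change by level removed, CBX3 (0.03) and JPX (0.05) with library size alone, CBX3 (0.02) and JPX (0.04) with upper-quartile factors, JPX (0.00) with at least 10 counts, CBX3 (0.02) and AC005943.5 (-0.07) without CBX1 replicate 2, and CBX3 (0.03) without Control replicate 2. Over the libraries left out, CBX3 ranged from -0.14 to 0.03 and AC005943.5 from -0.07 to 0.66. The cause of these moves was not tested. Depth limits low genes most, since a gene at 1 CPM has about 10 counts in a library.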
